A study of Mus musculus with 7 samples.

Results

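Erbb4 and 3 of its neuregulin ligands, Nrg1, Nrg2 and Nrg3, were chosen by name. Erbb4, Nrg1 and Nrg3 were read among 25871 gene columns of a single-nucleus RNA-Seq (snRNA-Seq) data set, and all 4 genes by position in an ATAC-Seq data set of open chromatin. Nrg2 transcripts were not analysed here. Nuclei came from primary visual cortex (V1) of C57BL/6J mice aged 6 to 10 weeks and injected with the SST PESCA AAV9 library, a pool of adeno-associated viruses that carry candidate enhancers. They were sequenced as 1 sample in 10 libraries, which the study's methods describe as 5 libraries from each of 2 animals. The ATAC-Seq samples, 2 each from SST, PV and VIP interneurons, came from whole cortex of uninjected mice aged 6 to 12 weeks. The crosses were Sst-IRES-Cre, Pv-Cre and Vip-IRES-Cre, each with SUN1-2xsfGFP-6xMYC, the strains labelled JAX013044, JAX017320 and JAX010908, each with JAX021039. In these mice Cre recombinase switches on a tagged nuclear envelope protein by which nuclei are pulled down, so a sample holds whatever cells had ever expressed that Cre. The labels give all mice as male, whereas the methods name both sexes for the crosses.

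Erbb4 encodes ErbB4, a receptor tyrosine kinase of the epidermal growth factor receptor family. Neuregulins are made as membrane proteins, are cleaved by proteases of the ADAM and BACE families, and bind ErbB4 or ErbB3 through an EGF-like domain. In cortex the receptor is known from inhibitory interneurons, where it acts at excitatory synapses, and neuregulins from excitatory neurons and other cells.

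The sequences below belong to 3 regions called in ATAC-Seq, an Nrg1 intron with reads nearly only in PV, an Nrg3 intron highest in VIP and an Nrg1 start lowest in VIP, and to the start of Erbb4. They are from RefSeq, build GRCm38.p6. The intronic pair are 300-base peaks deposited for PV replicate 2 and VIP replicate 2, on the + strand, whereas Erbb4, Nrg1 and Nrg3 are all read from the − strand. The Nrg1 start sequence, also on the + strand, holds only the 240 bases of a PV replicate 1 peak that lie before the start of transcript Nrg1-218. The Erbb4 sequence is the 250 bases before its start, as read on the − strand. Capitals mark matches to any of 4 motifs, searched on both strands: TAATTA, a homeodomain motif, AGGTCA, a nuclear receptor half-site, TGACTCA, the AP-1 motif, and CATCTG, an E-box.
Nrg1 intron, chr8:32674972-32675271: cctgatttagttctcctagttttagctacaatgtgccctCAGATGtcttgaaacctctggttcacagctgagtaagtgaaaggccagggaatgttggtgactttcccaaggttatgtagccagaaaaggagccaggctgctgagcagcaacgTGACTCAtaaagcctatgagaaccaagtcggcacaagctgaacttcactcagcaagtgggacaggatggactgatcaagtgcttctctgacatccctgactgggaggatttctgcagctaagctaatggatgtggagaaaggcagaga
Nrg3 intron, chr14:39317486-39317785: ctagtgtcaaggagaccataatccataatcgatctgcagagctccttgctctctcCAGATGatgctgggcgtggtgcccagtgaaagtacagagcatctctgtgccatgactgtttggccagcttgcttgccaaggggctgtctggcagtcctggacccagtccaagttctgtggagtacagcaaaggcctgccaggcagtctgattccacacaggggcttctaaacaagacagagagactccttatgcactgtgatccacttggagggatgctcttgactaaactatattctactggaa
Nrg1 start, chr8:32884030-32884269: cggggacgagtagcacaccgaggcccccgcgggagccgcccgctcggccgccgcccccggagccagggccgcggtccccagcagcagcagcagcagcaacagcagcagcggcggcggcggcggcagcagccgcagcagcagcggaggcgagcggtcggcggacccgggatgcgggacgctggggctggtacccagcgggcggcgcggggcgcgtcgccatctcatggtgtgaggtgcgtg
Erbb4 start, chr1:69108060-69108309: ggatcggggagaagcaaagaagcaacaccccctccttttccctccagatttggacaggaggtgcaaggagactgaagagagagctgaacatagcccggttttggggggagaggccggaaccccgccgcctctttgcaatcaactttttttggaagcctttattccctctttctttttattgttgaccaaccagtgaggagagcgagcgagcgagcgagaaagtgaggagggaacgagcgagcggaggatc

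The Nrg1 intron sequence held 1 CATCTG match, at base 40, and 1 TGACTCA match, at base 153, which do not overlap. The Nrg3 intron sequence held 1 CATCTG match, at base 56. The sequences before the Nrg1 and Erbb4 starts, 240 and 250 bases long, held none of the 4 motifs. The shares that follow are for 300 bases and so are not matched to these shorter sequences. Over all 274845 deposited peaks, 26.1% of 300-base windows held CATCTG, 13.7% AGGTCA, 8.38% TGACTCA and 4.15% TAATTA. Of 32851 RefSeq promoters of the same length, 17.2% held CATCTG, 16.3% AGGTCA, 5.20% TGACTCA and 5.29% TAATTA. GC content was 48.3% in the Nrg1 intron sequence, 51.3% in the Nrg3 intron sequence, 78.8% before the Nrg1 start and 54.0% before the Erbb4 start.

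Of 47348 barcodes, 32335 held more than 200 non-viral unique molecular identifiers (UMIs, counted transcripts) and were kept as nuclei. A library held 2457 to 3629 nuclei and 2496224 to 3041931 UMIs. Nuclei were placed in types by summed UMIs of marker lists that hold none of the 4 genes, which gave 12510 nuclei in 13 types: 338 PV, 267 SST, 122 VIP and 226 NPY interneurons, 4009, 438, 924 and 2358 excitatory nuclei of layers 2/3, 4, 5 and 6, 1646 astrocytes, 1281 oligodendrocytes, 214 oligodendrocyte precursors (OPCs), 272 microglia and 415 endothelial nuclei. A further 272 inhibitory and 11545 excitatory nuclei met no single type, and 8008 nuclei were not gated. Of 35 pairs of a type and a check marker the gates did not use, the marker was highest in its own type in 24 and among the top 2 types in 33. None of the check markers of NPY (Adarb2, Prox1, Reln), layer 4 (Cux1, Kcnh5) or layer 6 (Fezf2, Nfib) was highest in its own type. Endothelial-gated nuclei also carried the 6 mural cell markers, at a summed 90.7 UMIs per 10000, so they were vascular nuclei in the wider sense. Among kept nuclei 5476 of 25866 barcode names occurred in 2 or more libraries, and each barcode of each library was counted as a separate nucleus. No doublets were removed other than by the gate, which needs 1 class list to outweigh every other. As there is 1 sample, levels carry exact Poisson 95% intervals, which cover counting error only, and no test between types was possible.

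Among gated nuclei the Erbb4 level was highest in inhibitory interneurons. Inhibitory nuclei held 646 Erbb4 UMIs, or 5.02 per 10000 UMIs (95% interval 4.64 to 5.43), whereas the 19274 excitatory nuclei held 195, or 0.0991 per 10000 (0.0857 to 0.114). Per library the inhibitory level had a lowest value of 3.52, a median of 4.73 and a highest of 6.57, and the excitatory level ran from 0.0507 through 0.106 to 0.145. The ranges did not overlap. The 8008 nuclei that were not gated held a further 655 UMIs, or 1.32 per 10000 (1.22 to 1.43), of 1575 in all nuclei. The ratio of inhibitory to excitatory nuclei was 50.7 (43.1 to 59.8), and it was 42.4 in library set 1 and 59.5 in set 2. It depended on the gate, at 69.8 with a stricter gate and 31.4 with a looser one. Among 13271 genes with 50 or more UMIs over both classes, 6.89% were at least 2-fold higher in inhibitory nuclei and 11.7% at least 2-fold higher in excitatory nuclei, and the Erbb4 ratio ranked 7 from the top.

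Within interneurons Erbb4 separated SST nuclei from the rest. The PV level was 6.69 per 10000 (5.95 to 7.49) from 299 UMIs, with a lowest library at 3.79, a median of 6.76 and a highest of 9.54. The VIP level was 6.68 (5.17 to 8.50) from 66 UMIs, with libraries from 3.23 through 6.08 to 12.98. The NPY level was 4.46 (3.63 to 5.43) from 100 UMIs, with libraries from 2.45 through 4.34 to 7.43. These 3 types overlapped across libraries, although the ratios of PV and of VIP to NPY nuclei were 1.499 (1.19 to 1.90) and 1.497 (1.08 to 2.06). The SST level was 1.08 (0.740 to 1.53) from 32 UMIs, with libraries from 0 through 0.932 to 2.39, so that every SST library lay below the lowest library of the other 3 interneuron types. PV nuclei exceeded SST nuclei 6.18-fold (4.28 to 9.20), by 4.24-fold in library set 1 and 8.32-fold in set 2. VIP nuclei exceeded them 6.17-fold (3.99 to 9.73) and NPY nuclei 4.12-fold (2.74 to 6.34). The PV to VIP ratio was 1.00 (0.765 to 1.33). Set against Gad1, the GABA-synthesizing enzyme and a marker the gate used, the gaps were smaller, with 0.208 Erbb4 UMIs per Gad1 UMI in PV (0.183 to 0.236), 0.215 in VIP (0.162 to 0.281), 0.124 in NPY and 0.0650 in SST nuclei (0.0440 to 0.0930). Among 3717 genes with 50 or more UMIs over PV and SST nuclei, 7.16% were at least 2-fold higher in PV, 4.39% at least 2-fold higher in SST, and the Erbb4 ratio ranked 26 from the top. The 272 inhibitory nuclei of no single type held Erbb4 at 6.76 per 10000 (5.72 to 7.94).

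**Figure D1:**
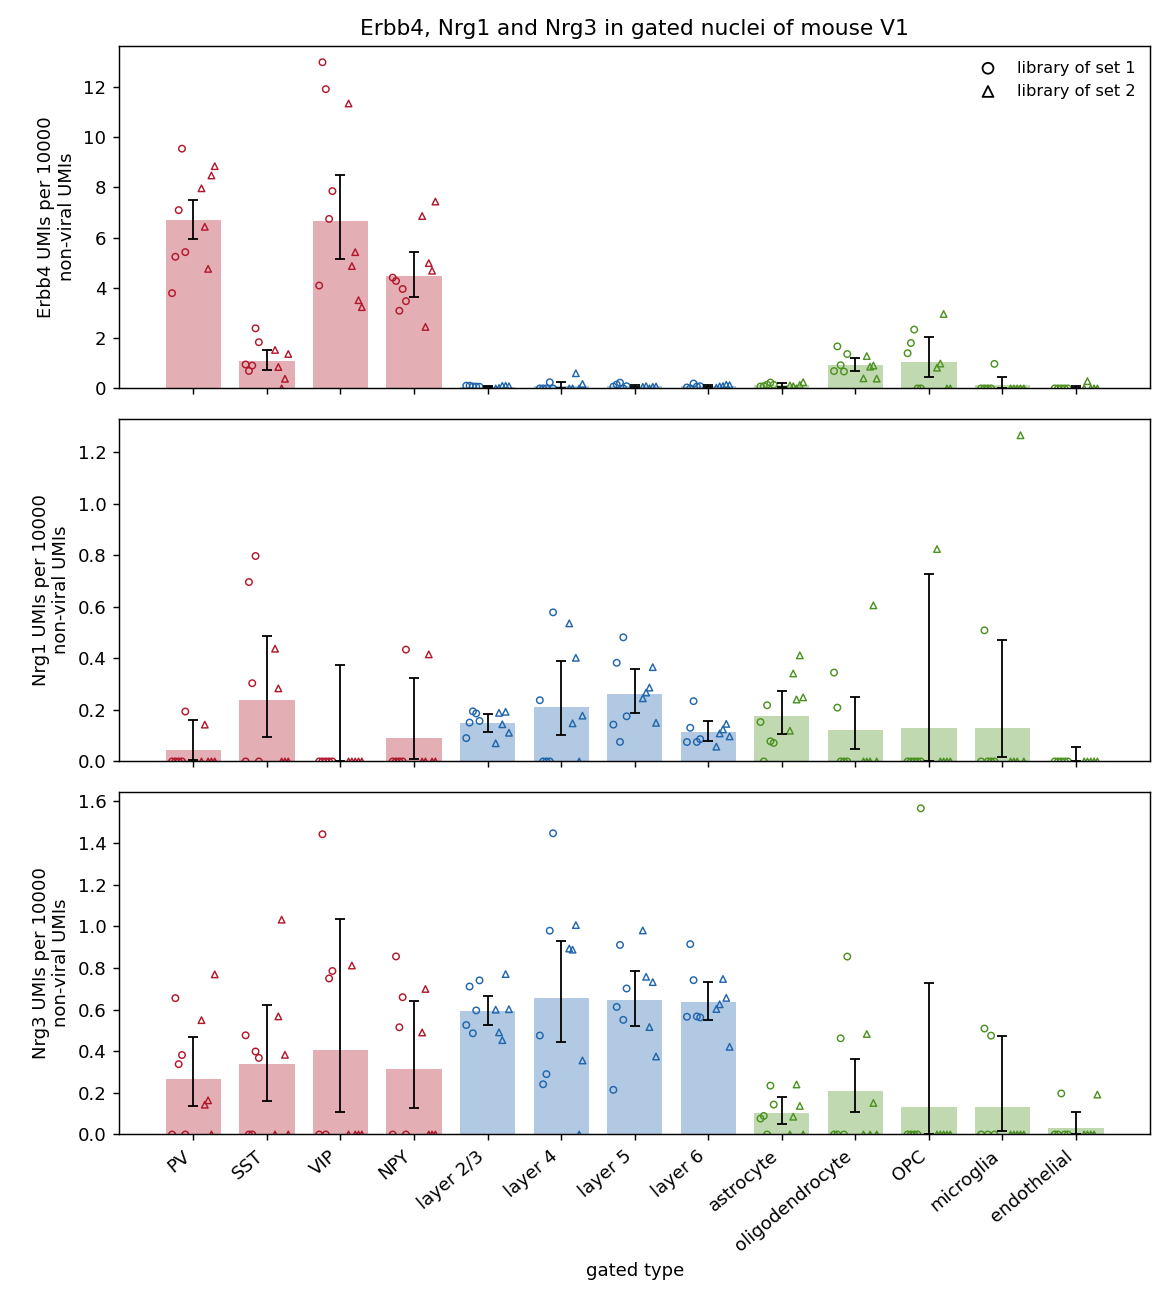
UMIs of Erbb4, Nrg1 and Nrg3 per 10000 non-viral UMIs (vertical axes, linear) in 13 gated types of V1 nuclei (horizontal axis). Bars are sums over all nuclei of a type, with exact Poisson 95% intervals, circles and triangles are the libraries of sets 1 and 2, and interneurons, excitatory layers and other cells are red, blue and green. Erbb4 stands at 6.69 in PV and 1.08 in SST nuclei, and Nrg3 between 0.593 and 0.655 in all 4 excitatory layers.

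SST nuclei were also split by the UMIs of other genes. The 160 SST nuclei with a UMI of Npy, a neuropeptide, held 10 Erbb4 UMIs, or 0.506 per 10000 (0.243 to 0.931), whereas the 107 without one held 22, or 2.24 (1.41 to 3.40). The median depth was 1108 UMIs in the first and 820 in the second. A split by Calb1, the calcium-binding protein calbindin, gave 0.241 (0.0497 to 0.705, 3 UMIs) in 89 nuclei with a UMI and 1.69 (1.13 to 2.43) in 178 without. Without the 7 SST nuclei that held a Pvalb UMI the Erbb4 level was 1.01 (0.680 to 1.46). These splits were chosen after values were seen, from 7 genes tried, rest on few UMIs and were not tested, and Npy is itself a marker of the NPY gate, which competes with the SST gate.

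The share of nuclei with an Erbb4 UMI ran in the same order, although median depth differed between the types. It was 52.4% in PV nuclei (exact binomial 95% interval in all shares, here Clopper-Pearson, 46.9 to 57.8, median depth 1256.5 UMIs), 36.9% in VIP nuclei (28.3 to 46.1, 785), 29.6% in NPY nuclei (23.8 to 36.1, 919.5) and 9.36% in SST nuclei (6.15 to 13.5, 1013). Excitatory nuclei, set beside these for comparison, were at 0.830% (0.707 to 0.968) with a median depth of 908 UMIs, and the part of free RNA in that share was not tested. With each nucleus thinned to 300 UMIs the shares were 16.3% of 331 PV, 16.5% of 115 VIP, 9.59% of 219 NPY, 2.36% of 254 SST and 0.301% of 17248 excitatory nuclei, so the gap between PV and VIP nuclei was not seen at equal depth.

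Outside neurons the highest Erbb4 levels were in the oligodendrocyte lineage. Oligodendrocyte nuclei held 53 UMIs, or 0.920 per 10000 (0.689 to 1.20), with libraries from 0.390 through 0.886 to 1.67, and OPC nuclei held 8, or 1.04 (0.450 to 2.05). Gad1 stood there at 53 UMIs, or 0.920, and at 9 UMIs, or 1.17. Erbb4 UMIs per Gad1 UMI were thus 1.00 (0.670 to 1.49) in oligodendrocytes and 0.889 (0.298 to 2.60) in OPCs. They were 0.177 (0.163 to 0.193) in inhibitory nuclei, 0.288 (0.245 to 0.339) in excitatory nuclei and 0.166 (0.132 to 0.207) in barcodes with 200 or fewer UMIs. For the Erbb4 level, astrocytes were at 0.129 (0.0705 to 0.216), microglia at 0.130 from 2 UMIs and endothelial nuclei at 0.0305 from 2 UMIs, each pair from 1 library. The level in oligodendrocytes was 7.13 times (3.90 to 13.9) that in astrocytes. In the 4 excitatory layers Erbb4 was between 0.0738 and 0.106 per 10000. The highest of these, layer 4, rested on 5 UMIs, of which 3 were in library 2-3, and without that library its level was 0.0472. The 15013 barcodes with 200 or fewer UMIs held Erbb4 at 0.522 per 10000 (0.422 to 0.638), and the part of free RNA in the levels outside interneurons was not tested.

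Ordered by level, Erbb4 went from PV, VIP and NPY to SST, OPC and oligodendrocyte nuclei, then to microglia, astrocytes, layers 4, 6, 5 and 2/3 and last to endothelial nuclei. Between neighbours in this order, the difference of library means was beyond the larger SD over the 10 libraries in 2 places. NPY exceeded SST nuclei by 3.47 against an SD of 1.56, and oligodendrocytes exceeded microglia by 0.820 against an SD of 0.417. All other neighbours differed by less than their spread.

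Nrg3, a neuregulin of neural tissue, was highest in excitatory neurons and even across their layers. Excitatory nuclei held 1194 UMIs, or 0.607 per 10000 (0.573 to 0.642), with libraries from 0.553 through 0.615 to 0.670. Inhibitory nuclei held 45, or 0.350 (0.255 to 0.468), with libraries from 0.185 through 0.340 to 0.619. The highest inhibitory library overlapped the excitatory range. Barcodes with 200 or fewer UMIs held Nrg3 at 0.3296 (0.252 to 0.424), so the inhibitory level lay within their interval, and the part of free RNA was not tested. The ratio of excitatory to inhibitory nuclei was 1.73 (1.29 to 2.39), at 1.77 in library set 1 and 1.70 in set 2, short of the 2-fold mark. The level was 0.655 in layer 4, 0.644 in layer 5, 0.636 in layer 6 and 0.593 in layer 2/3, with a layer 2/3 to layer 6 ratio of 0.932 (0.775 to 1.12). Interneuron types ran from 0.268 in PV nuclei (12 UMIs) through 0.312 in NPY (7 UMIs) and 0.338 in SST (10 UMIs) to 0.405 in VIP (4 UMIs). Their intervals overlapped. Excitatory nuclei exceeded astrocytes, at 0.101 per 10000 from 11 UMIs, 5.99-fold (3.33 to 12.0), and oligodendrocytes, at 0.208 from 12 UMIs, 2.91-fold (1.66 to 5.65). Of these 12 UMIs 5 were in library 1-5, and the oligodendrocyte level without it was 0.135. No pair of neighbours in the order of the 13 types differed by more than the SD over libraries. A UMI of Nrg3 was seen in 5.36% of excitatory nuclei (5.05 to 5.69), in 0.547% of astrocytes (0.250 to 1.04) and in 3.02% of inhibitory nuclei (2.14 to 4.14). At 300 UMIs a nucleus these shares were 1.73%, 0.0923% and 0.868%.

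Nrg1, which encodes neuregulin 1 from several transcription starts, was sparse everywhere, with 452 UMIs in all nuclei. It was highest in layer 5, at 0.263 per 10000 (0.188 to 0.358) from 40 UMIs, with libraries from 0.0759 through 0.256 to 0.482. Layer 6 held 0.113 (0.0783 to 0.158) and layer 2/3 held 0.148 (0.116 to 0.185), and every library of both had a Nrg1 UMI. Layer 5 exceeded layer 6 by 2.32-fold (1.43 to 3.78) and layer 2/3 by 1.78-fold (1.18 to 2.65), although library ranges overlapped in both. Astrocytes, at 0.175 (0.105 to 0.273) from 19 UMIs, were level with excitatory nuclei as a whole at 0.174 (0.156 to 0.193), with a ratio of 0.993 (0.626 to 1.67). Barcodes with 200 or fewer UMIs held Nrg1 at 0.110 (0.0671 to 0.170), an interval that overlaps those of every class and type but layer 5 and endothelial nuclei, and the part of free RNA was not tested. SST nuclei held 7 UMIs, or 0.237 (0.0952 to 0.488), PV nuclei 2 UMIs and NPY nuclei 2 UMIs. The SST to PV ratio was 5.29 with a counting interval of 1.01 to 52.2. In VIP nuclei there was 0 Nrg1 UMI, and 0 of 122 nuclei allows a share of up to 2.46% with a UMI by the limit of 3 counts, or 2.98% as the exact binomial upper bound. Excitatory nuclei exceeded inhibitory nuclei 1.86-fold (1.05 to 3.64). A Nrg1 UMI was seen in 4.00% of layer 5 nuclei (2.83 to 5.48) at a median of 1530 UMIs, and in 1.31% of layer 6 nuclei (0.895 to 1.86) at a median of 1179. At 300 UMIs a nucleus these shares were 0.331% of 907 and 0.432% of 2313 nuclei, with too few nuclei behind them to order the layers. No neighbours in the order of types differed beyond their SD over libraries.

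Of the rest of the fixed ErbB list, 30 genes were read, and 23 had 50 or more UMIs over inhibitory and excitatory nuclei. At the 2-fold mark, 3 were higher in inhibitory nuclei and 4 in excitatory nuclei, beside 6.89% and 11.7% of all genes. The first were Hbegf, an EGF receptor ligand, at 0.303 against 0.0915 per 10000, Mapk3, the kinase ERK1, at 0.443 against 0.219, and Stat5b, a transcription factor, at 0.233 against 0.0925. The second were Nrg4, at 0.00778 from 1 UMI against 0.0305, Tgfa, at 0.00778 from 1 UMI against 0.0366, Sntb2, a syntrophin scaffold, at 0.669 against 1.67, and Pik3r1, a regulatory subunit of PI3-kinase, at 1.28 against 2.60. Of 13 such genes with enough UMIs over PV and SST nuclei, 0 passed the 2-fold mark in either direction, beside 7.16% and 4.39% of all genes. Of the postsynaptic scaffolds on the list other than Sntb2, Dlg4 (PSD-95), Dlg3, Dlg2 and Magi2 each differed by less than 2-fold between inhibitory and excitatory nuclei.

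The other receptors had their own patterns. Erbb3, which binds neuregulins but has little kinase activity of its own, was at 1.37 per 10000 in oligodendrocytes and 1.04 in OPCs, and at 0.00778 or below in both neuronal classes. Erbb2, the co-receptor without a known ligand, had 80 UMIs in all nuclei. Egfr was at 2.83 in VIP and 2.36 in NPY nuclei and at 0.447 in PV and 0.372 in SST nuclei, and at 2.49 in astrocytes. Tgfa, which encodes the EGF receptor ligand TGF-alpha, was at 5.21 in OPCs and 2.34 in oligodendrocytes. Among proteases, Adam10 ran from 0.917 in PV nuclei to 4.60 in endothelial nuclei and Bace1 from 0.130 in microglia to 2.95 in PV nuclei.

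**Figure D2:**
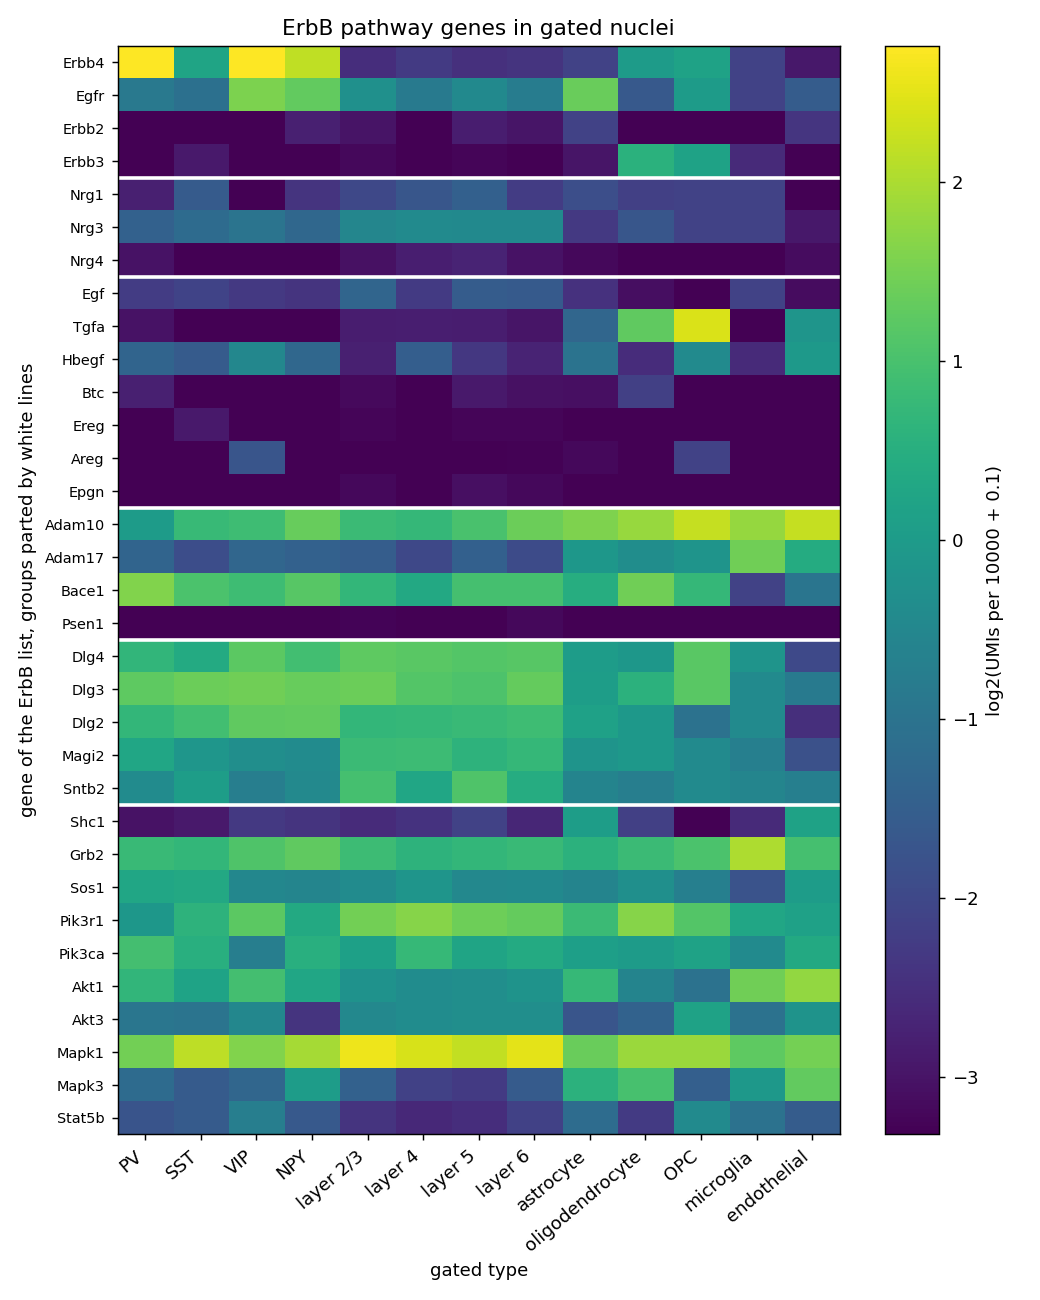
Level of each gene of the ErbB list (rows, grouped as receptors, neuregulins, other EGF family ligands, proteases, scaffolds and signalling genes) in 13 gated types (columns), coloured by log2(UMIs per 10000 + 0.1). The Erbb4 row is brightest in PV, VIP and NPY nuclei, the Erbb3 row in oligodendrocytes and OPCs, and the Tgfa row in OPCs at 5.21 per 10000.

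The pattern of each gene over the 13 types was set against 6083 genes with 500 or more UMIs, by Pearson's r of log2(UMIs per 10000 + 0.1). Genes most like Erbb4 included Inafm2 (r = 0.914), Dner (0.866), a Notch-related surface protein, Ghitm (0.856) and Ate1 (0.826). Their ranges over the types differed, as r does not measure the size of a difference. Erbb4 ran from 0.0305 to 6.69 per 10000 and Dner from 0.0305 to 10.5. Inafm2 ran only from 0.244 to 0.828, Ghitm from 2.34 to 5.64 and Ate1 from 0.424 to 1.62. The 5 most like Nrg3 were Cx3cl1 (0.982), the chemokine fractalkine, Syt4 (0.976), a synaptotagmin, Ptpn5 (0.972), a striatal-enriched phosphatase, Pgr (0.970), the progesterone receptor, and Sept5 (0.967), a septin. These are the highest of many values over the same 13 points, which share libraries and depth. Nrg1 had 198 UMIs over the 13 types, too few for the rule used.

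ATAC-Seq asked whether chromatin at the 4 genes differed between SST, PV and VIP interneurons. Samples held 1801883 to 2256073 reads in 323369 reference regions (mm10), of which 40338 passed the filter on low counts. At the Sst start region SST samples had 33 and 32 reads and all others 2 to 4, and at the Vip start region VIP samples had 26 and 37 and all others 0 to 5. At the Pvalb start region PV samples had 39 and 29 reads against 20 to 32 in the others, so it did not separate them. Genes were taken with 50 kb on each side, in GENCODE vM21 on GRCm38, the assembly of mm10: Erbb4 at chr1:68032186-69108059 with 122 regions, Nrg1 at chr8:31814551-32884029 with 98, Nrg3 at chr14:38368952-39473088 with 82, and Nrg2 with 64. Of these, 3, 12, 4 and 8 regions passed the filter, 27 in all. None of the 287 candidate enhancers that the study screened lay within 200 kb of any of the 4 genes. Each test is edgeR's quasi-likelihood test with Benjamini-Hochberg adjustment over all 40338 regions, at a false discovery rate of 5%.

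Between SST and PV, 2 of the 27 regions were higher in PV and 0 in SST, where all tested regions gave 4.33% and 3.96%. At an unadjusted p under 0.05, Nrg1 had 1 region higher in SST and 2 in PV, Nrg2 had 3 higher in PV, and Erbb4 and Nrg3 had 0, where all tested regions gave 11.9% higher in SST and 12.4% in PV. Between SST and VIP, 6 were higher in SST and 2 in VIP, beside 17.8% and 18.4% of all tested regions. Between PV and VIP, 10 were higher in PV (37.0%) and 3 in VIP (11.1%), beside 24.6% and 24.6%. The 6 regions higher in SST than VIP were all at Nrg1, and of the 10 higher in PV than VIP 7 were at Nrg1 and 3 at Nrg2.

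Erbb4 had 0 of its 3 tested regions called in any contrast by edgeR, and 0 at an unadjusted p under 0.05. DESeq2 also gave 0 by both measures, counted over regions with an adjusted p. These were 2 Erbb4 regions for SST against PV and 3 for each contrast with VIP. With no filter 107 regions were tested and 0 called. At an unadjusted p under 0.05 the most in 1 direction was 4, higher in PV than SST, beside 9441 of all 310118 regions. With windows of 200 kb, 1 region more than 50 kb outside the gene was called higher in SST than VIP and higher in PV than VIP. The region over its start, chr1:69107532-69108446, which covers the first coding exon, had 14 and 17 reads in PV, 22 and 15 in VIP and 21 and 20 in SST samples. The 3 groups overlapped or adjoined, with a log2 difference of 0.26 (SE 0.42, adjusted p = 0.764) for SST minus PV, 0.20 (SE 0.41, adjusted p = 0.737) for SST minus VIP and -0.06 (SE 0.43, adjusted p = 0.918) for PV minus VIP. The overlapping region 0.5 kb before the start had 10 and 16, 12 and 9, and 20 and 17 reads in PV, VIP and SST samples, with SST minus VIP at 0.87 on the log2 scale (SE 0.47, adjusted p = 0.160). The one 2.3 kb inside the gene had 3 and 19, 10 and 6, and 14 and 7 reads. The other 119 regions fell under the filter, with a median of 5 reads over all 6 samples across the 122. The transcript levels of 6.69, 6.68 and 1.08 per 10000 in PV, VIP and SST nuclei thus stood beside start regions at which no contrast passed the test.

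At Nrg1, VIP samples were called lower than PV samples at 7 and lower than SST samples at 6 of the 12 tested regions. Of all tested regions, 24.6% and 17.8% were called in these directions. At 1 Nrg1 region, 337.1 kb, VIP samples were called higher than SST samples, and at 0 higher than PV samples. Normalised reads summed over its 98 regions (CPM, scaled by edgeR's TMM) were 263.7 and 255.3 in PV, 138.6 and 141.5 in VIP and 269.6 and 260.3 in SST samples, with the same 68655 bases covered in each. Of the 12 tested regions, 11 had a log2 difference above 0 for SST minus VIP, with a median of 1.11, and 11 for PV minus VIP, with a median of 1.46. Over all tested regions these medians were 0.0660 and 0.0443. For SST minus PV the Nrg1 median was -0.05, with 6 of 12 above 0. At 208.8, 420.0, 441.9, 965.3 and 965.9 kb VIP samples had 0 to 8 reads, so these regions passed the filter through PV or SST samples. So did the region at 597.3 kb, with 11 and 3 reads in VIP, 16 and 19 in PV and 21 and 13 in SST samples. Of the calls of PV above VIP, only those at -0.1 and 875.2 kb lay outside these regions. The counts and medians against VIP thus depend on the filter, and by how much was not tested. The regions at -0.7 and -0.1 kb overlap, as do those at 965.3 and 965.9 kb.

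Several of these regions lay over transcription starts. The region at 875.2 kb, chr8:32008381-32009196, over the start of Nrg1-203, had 101 and 102 reads in PV, 38 and 30 in VIP and 78 and 71 in SST samples. PV exceeded VIP by 1.77 on the log2 scale (SE 0.29, adjusted p = 0.000150) and SST exceeded VIP by 1.19 (SE 0.29, adjusted p = 0.00405). The region over the start of Nrg1-218, chr8:32883706-32884559, a UTR exon whose upstream sequence is given above, had 79 and 62, 31 and 29, and 79 and 59 reads, with VIP below PV by 1.42 (SE 0.32, adjusted p = 0.00153) and below SST by 1.27 (SE 0.32, adjusted p = 0.00438). At Nrg1-201, chr8:31917728-31918453, SST samples had 33 and 21 reads, PV samples 13 and 7 and VIP samples 8 and 2, and only SST minus VIP was called (2.47, SE 0.57, adjusted p = 0.00266). This region passed the filter through the SST samples, and its call was lost with no filter (adjusted p = 0.0790). The overlapping region at Nrg1-211 had 14 and 15, 8 and 1, and 19 and 21 reads. It was called against VIP for both PV (1.85, SE 0.63, adjusted p = 0.0215) and SST (2.17, SE 0.60, adjusted p = 0.00888). Both calls were lost with DESeq2 (adjusted p = 0.0945 and 0.0597) and with no filter (0.258 and 0.142). Without PV replicate 2 its PV minus VIP difference was 1.72, and that call did not hold. At Nrg1-202 reads were 18 and 6, 9 and 13, and 11 and 33, and no contrast was called. Without VIP replicate 2, SST minus VIP was 1.04 at Nrg1-218, 0.85 at 875.2 kb, 1.63 at Nrg1-201 and 1.18 at Nrg1-211. It was 0.67 at -0.7 kb and 2.19 at 441.9 kb. These calls of SST against VIP did not hold in that fit. PV minus VIP was then 1.39 at 420.0 kb, 0.66 at 597.3 kb and 0.84 at Nrg1-211, and these calls did not hold either. With no filter, the calls that held at Nrg1 were PV above VIP at 875.2 kb and at 208.8 kb. None of the calls of SST above VIP at Nrg1 held with no filter or without VIP replicate 2.

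At 1 intronic region of Nrg1 nearly all reads were in PV samples. At 208.8 kb from the gene start, chr8:32674822-32675664, PV samples had 16 and 11 reads, VIP samples 0 and 1 and SST samples 0 and 2, and a deposited peak covered it in both PV samples and in no other. PV exceeded VIP by 4.63 on the log2 scale (SE 0.90, adjusted p = 0.000567), and SST lay below PV by 3.74 (SE 0.80, adjusted p = 0.00989). The lower counts are at 0 to 2 reads, so the size of the difference is loose. The region passed the filter through the PV samples alone, and so had to differ to be tested. With no filter PV still exceeded VIP (adjusted p = 0.0317). Its mean phyloP conservation score was -0.0304, beside a median of 0.0642 over all reference regions and 0.943 at the Erbb4 start. Its call for SST against PV was lost without PV replicate 2 (adjusted p = 0.170), without SST replicate 1 (0.0518) and with no filter (0.286). The region fell under the filter without PV replicate 1, and DESeq2 gave it no adjusted p in that contrast. An intronic region at 441.9 kb, chr8:32441745-32442574, had 13 and 14 reads in PV, 11 and 20 in SST and 3 and 5 in VIP samples and was called in both contrasts with VIP, but both calls were lost with DESeq2, with no filter and without VIP replicate 1 (adjusted p = 0.0819 to 0.161). One at 337.1 kb, chr8:32546442-32547401, went the other way, with 8 and 23 reads in VIP and 4 and 5 in SST samples (log2 -1.68, SE 0.61, adjusted p = 0.0395), a call that was lost without VIP replicate 2 (log2 -0.94, adjusted p = 0.522), without SST replicate 1 (adjusted p = 0.0582), with DESeq2 (0.187) and with no filter (0.188). In nuclei, Nrg1 had 2 UMIs in PV, 7 in SST and 0 in VIP types, too few to set beside these regions.

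**Figure D3:**
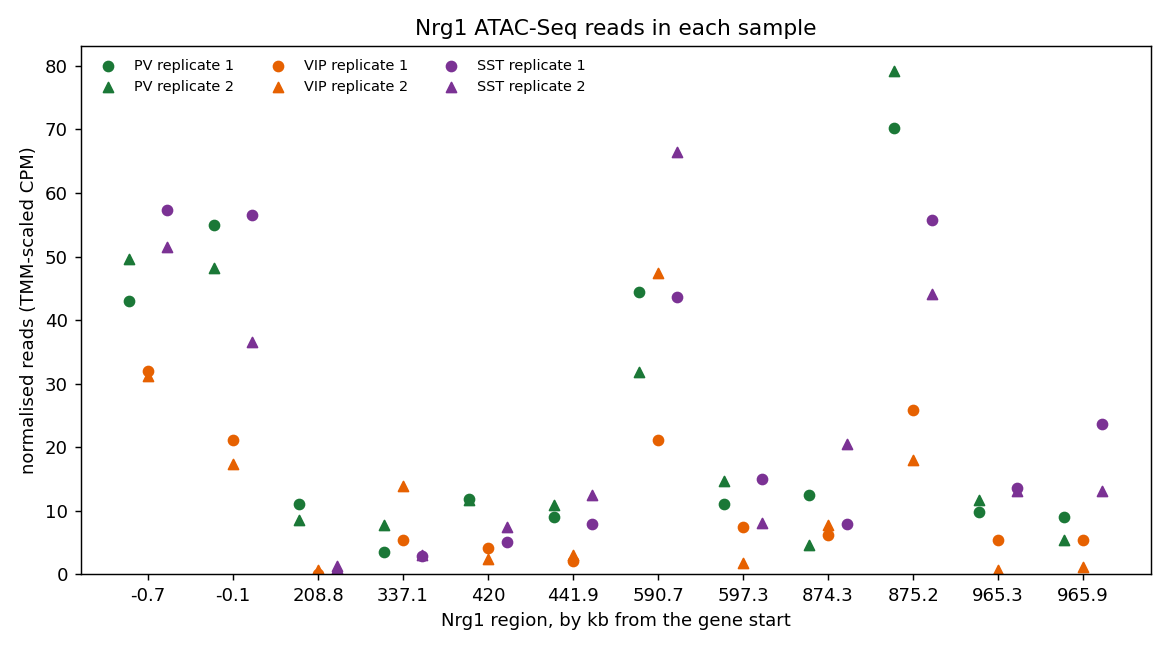
Normalised reads (TMM-scaled CPM of the reads in tested regions, linear axis) at the 12 tested Nrg1 regions, ordered by distance from the gene start, for replicates 1 (circles) and 2 (triangles) of PV, VIP and SST. Both VIP samples lie lowest at 875.2 and -0.1 kb, and at 208.8 kb only the PV samples stand clear of 0.

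At Nrg2, 3 of 8 tested regions were higher in PV than VIP and 2 in VIP, which is near the 24.6% of all tested regions in each direction. An intronic region 43.6 kb from the start had 17 and 22 reads in PV, 3 and 3 in VIP and 5 and 4 in SST samples. PV exceeded VIP by 2.85 (SE 0.56, adjusted p = 0.000672), and SST lay below PV by 2.23 (SE 0.52, adjusted p = 0.0154). The intronic regions at 41.7 and 92.0 kb were also higher in PV than VIP, by 2.40 (adjusted p = 0.00402) and 1.47 (adjusted p = 0.0403). The first call was lost with DESeq2, with no filter and without any PV or VIP sample (adjusted p = 0.0761 to 0.151), and the second in the replicate block (0.0759), with DESeq2, with no filter and without any 1 of the 6 samples (0.0616 to 0.375). All 3 of these regions passed the filter through the PV samples alone. In the other direction, the region at 179.1 kb, in a coding exon at the end of the gene, had 179 and 145 reads in VIP against 80 and 85 in PV samples (log2 -0.78, SE 0.23, adjusted p = 0.0107), with SST samples between at 113 and 134, a call lost without PV replicate 1 (adjusted p = 0.0831) and without VIP replicate 1 (0.134). The region over the Nrg2 start had 63 and 61, 75 and 83, and 39 and 83 reads in PV, VIP and SST samples and was not called. The call of the 43.6 kb region against SST was lost with no filter (adjusted p = 0.283), without either PV sample (adjusted p = 0.0602 without replicate 1 and 0.241 without replicate 2) and without SST replicate 2 (0.0592), and DESeq2 gave it no adjusted p in that contrast.

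At Nrg3, the start region, chr14:39472355-39473091, had 21 and 22 reads in PV, 20 and 16 in VIP and 20 and 23 in SST samples, and no contrast was called. Reads summed over the 82 regions, normalised as the Nrg1 sums were, came to 92.8 and 91.3 in PV, 62.7 and 45.7 in VIP and 66.2 and 67.2 in SST samples. Of the 4 tested regions, 3 had a log2 difference above 0 for SST minus VIP and 3 for PV minus VIP. The region at -0.7 kb had 33 and 23, 19 and 13, and 25 and 16 reads, with PV minus VIP at 0.99 (SE 0.42, adjusted p = 0.0591). The intronic region at 155.5 kb, chr14:39317232-39317964, had 18 and 13 reads in VIP, 4 and 6 in PV and 5 and 4 in SST samples, and VIP had the only deposited peaks there. VIP exceeded SST by 1.70 on the log2 scale, written SST minus VIP as -1.70 (SE 0.56, adjusted p = 0.0230), and PV minus VIP was -1.42 (SE 0.55, adjusted p = 0.0398). The region passed the filter through the VIP samples alone. The first call was lost with DESeq2, with no filter, without VIP replicate 1 and without SST replicate 2 (adjusted p = 0.0858 to 0.239). The second was lost with DESeq2 and with no filter (adjusted p = 0.208 and 0.112), in the replicate block (adjusted p = 0.0598) and when any PV or VIP sample was left out (0.0549 to 0.289).

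**Figure D4:**
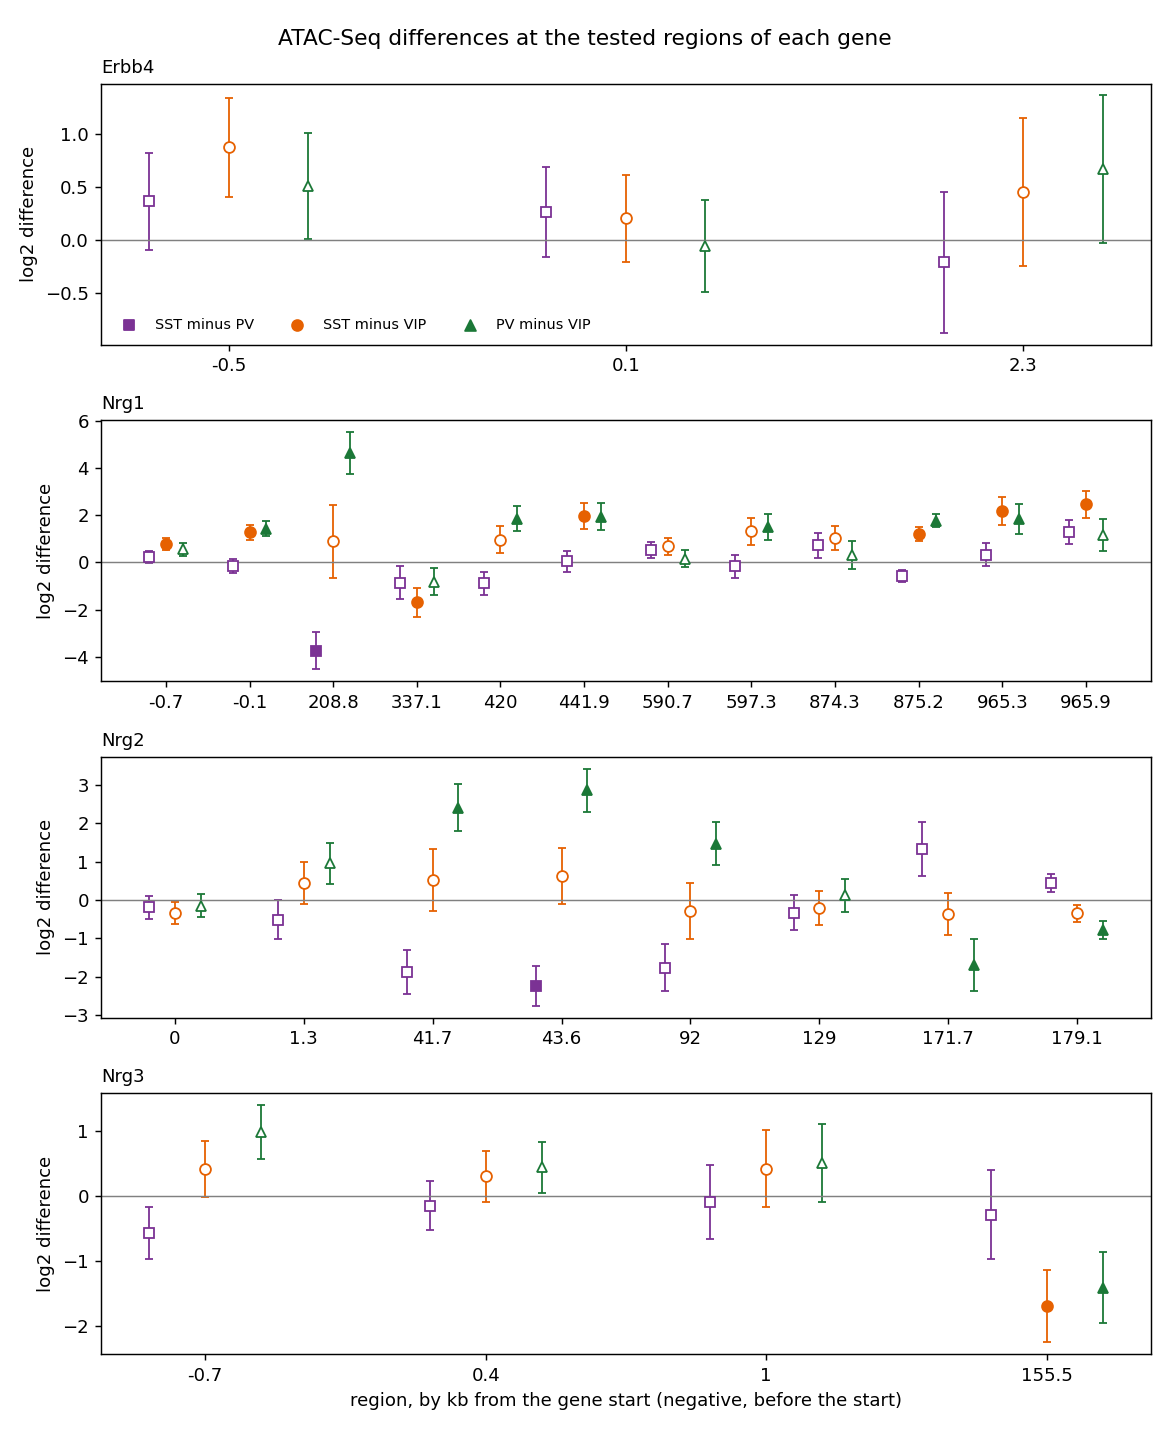
Log2 difference (vertical axes) with its SE at each tested region of the 4 genes, ordered by kb from the gene start, for SST minus PV (squares), SST minus VIP (circles) and PV minus VIP (triangles). Filled marks passed a false discovery rate of 5%. No Erbb4 mark is filled, and the highest PV minus VIP mark is 4.63, at 208.8 kb in Nrg1.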

How the data were processed

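For snRNA-Seq, the authors' inDrops pipeline mapped reads to a custom transcriptome, which the methods describe as built from GRCm38 with viral barcode sequences added. The deposited counts are UMIs per gene and barcode, not normalized. For ATAC-Seq, the authors trimmed reads with Trimmomatic 0.33, aligned them to mm10 with Subread 1.4.6-p3, removed duplicates and counted reads on merged regions, and these deposited counts are not normalized. The deposited peak lists give a −log10 q-value from MACS2 for each peak also called by HOMER. The deposited phyloP score is the authors' mean conservation of a region.

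A nucleus took the class whose summed markers had at least 2 UMIs and 3 times those of every other list, and then the interneuron or layer list with at least 2 UMIs and 2 times every other. Levels are summed UMIs over summed non-viral UMIs. The 4 genes and all lists were chosen with earlier results of these data known. Named regions lay over annotated starts or had the 3 lowest adjusted p values of a gene and contrast. Other regions and the SST splits named were chosen after their values were seen. Library sets are the first digit of library names. A level with no counts has a limit of 3 counts. The replicates are separate samples, single animals by the methods.

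ATAC-Seq counts were tested with edgeR 4.0.16 in R 4.3.3 (TMM, filterByExpr), with all 6 samples sharing 1 estimate of the spread (biological coefficient of variation 0.181), and the test was checked on simulated data. DESeq2 1.42.0 was an alternative. The deposited columns of the authors' own enhancer comparisons were not used. Nuclei were analysed with python 3.11.15, numpy 2.4.6, scipy 1.17.1 and pandas 2.3.3, with sequences from RefSeq GRCm38.p6. The 5 genes most like each of Erbb4 and Nrg3 over the types were sought, and 1 of them is not reported here.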

Additional observations from a re-analysis of the deposited data

How the results depend on the processing

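The depth was limiting, with 452 UMIs of Nrg1, 2 ATAC-Seq samples a group and 119 of 122 Erbb4 regions under the filter. Of 23 calls at regions of the 4 genes, 3 held under every alternative that gave a value: the Nrg1 regions at 208.8 and 875.2 kb and the Nrg2 region at 43.6 kb, each PV against VIP (the first fell under the filter without PV replicate 1). The 208.8 and 43.6 kb regions passed the filter through the PV samples alone, so that of the alternatives the test with no filter is the one free of that choice. No direction was reversed. Scaling by RLE left all 23.

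With DESeq2, regions higher in SST and PV were 240 and 190 (SST against PV), in SST and VIP 3066 and 4390, and in PV and VIP 5210 and 6404. These came from 27825, 40338 and 40338 regions with an adjusted p. At the 4 genes the counts were 0 and 0 of 16 such regions, 3 and 0 of 27, and 4 and 1 of 27. With no filter the counts were 0 and 0, 1941 and 5078, and 3095 and 7773 of 310118 regions. Of the 322 regions at the 4 genes they were 0 and 0, 0 and 0, and 3 and 1. No filter adds regions of few reads to the test. Windows of 200 kb held 55 tested regions and gave 0 and 3 for SST against PV. They gave 10 and 7 (18.2% and 12.7%) for SST against VIP, beside 17.8% and 18.4% of all tested regions. For PV against VIP they gave 17 and 9 (30.9% and 16.4%), beside 24.6% and 24.6%. Such windows hold more genes. Leaving out a sample in turn gave 469 to 4961 and 337 to 3615 (SST against PV), 3929 to 8694 and 4652 to 10323 (SST against VIP) and 6000 to 13224 and 6980 to 14391 (PV against VIP). At the 4 genes this gave 0 to 2 and 0 to 2, 1 to 9 and 1 to 2, and 6 to 14 and 0 to 4. The highest SST against PV counts came without SST replicate 1, the lowest without PV replicate 1, and the lowest SST against VIP and PV against VIP counts without VIP replicate 2.

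With the replicate block, calls over all regions were 1244 and 1313, 6815 and 7178, and 9575 and 9584, and 1 region at the 4 genes was higher in VIP than PV. Deviations of same-numbered samples correlated at -0.0366 to 0.0297, so the numbers do not pair samples.

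The ratio of Erbb4 in PV over SST nuclei was 4.24 in library set 1 alone. That of inhibitory over excitatory nuclei was 69.8 with the stricter gate, 31.4 with the looser gate, 38.2 as a mean over nuclei and 42.4 in library set 1. The cause was not tested. Over libraries left out in turn these ratios were 5.59 to 6.81 and 47.6 to 54.0, and those of excitatory over inhibitory nuclei 1.74 to 2.07 for Nrg1 and 1.65 to 1.84 for Nrg3.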
